A study of Drosophila melanogaster with 30 samples.

Results

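The genes described here lie on chromosome 4 of Drosophila melanogaster, the smallest chromosome of the fly. The list held 48 names of genes that FlyBase places on that chromosome. Caps is an older name of Cadps, which was also listed, so the 48 names stood for 47 genes, and the listed Thd1 is now named Tdg. All 47 had a row among the 16868 genes of the count files. The Ensembl annotation of build BDGP6.54 places 103 genes of those files on chromosome 4, of which 79 code for proteins. The 47 listed genes run from JYalpha (start at base 879) to Cadps (end at base 1271759) in that annotation, and the other 56 chromosome 4 genes served as a comparison.

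RNA with poly(A) tails was counted in 30 libraries, 2 in each of 15 groups. Females with an added Y chromosome called Yohio (XXYohio) or Ycongo (XXYcongo) were compared with females without a Y (XX), in whole bodies, in ovaries and in the larval central nervous system (CNS). Males with a further Yohio (XYYohio) or Ycongo (XYYcongo) were compared with males with 1 Y (XY), in whole bodies and in testes. The labels put a caret after the first X of every genotype, control and added-Y alike, and do not explain it. Adult flies were 2 days old, and rearing was at 23 degrees C with 14 hours of light a day. The CNS came from female larvae in their last instar. Both libraries of a group are named biological replicates, with no word on pooled flies or separate cultures. The p-values therefore measure the spread between libraries.

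Most of chromosome 4 is packed as heterochromatin, yet its genes are transcribed. The protein Pof binds nascent RNA of the genes on this chromosome and raises their output. The methyltransferase Eggless (egg) and the protein HP1a maintain the repressive histone mark there. The Y chromosome is itself almost wholly heterochromatic, and in flies an added Y is known to weaken silencing of genes placed next to heterochromatin. The question was whether genes that normally work inside heterochromatin change with an added Y, beside other genes of like level.

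Total counts lay between 6026258 and 15363636 per library, and mitochondrially encoded genes took 1.78% to 40.1% of them. Markers of the dissected tissues were present. Summed ovary markers (osk, bcd, grk, Vm26Aa, Cp36) lay between 4974 and 7762 CPM (counts scaled to a common library total) in ovaries and summed testis markers at 1866 CPM or more in testes, while summed neuronal markers reached at least 1471 CPM in the CNS. Testis libraries also held accessory gland RNA, with 21830 to 35950 CPM summed over 3 of its secreted proteins. Single markers did not all follow these sums. With CPM scaled over all 30 libraries, the median of grk was 36.8 in ovaries and 38.9 in male bodies. osk, bcd, Vm26Aa and Cp36 had their highest medians in ovaries. Syt1 and brp had 170 and 209 CPM in the CNS, against 387 and 251 in male bodies. elav and nSyb had 706 and 241, against 84.25 and 197, and para was not matched. In testes Acp36DE had a median of 30860 CPM, Acp26Aa 4796 and SP 2.30. The added Y was visible in RNA of its repeats: the 34 Suppressor of Stellate copies summed to 16.1 and 19.5 CPM in XXYohio ovaries, 28.9 and 44.3 CPM in XXYcongo ovaries and 0 counts in both XX ovary libraries. In the CNS, labelled female, 1 RNA went against that label in all 6 libraries. roX1, a dosage compensation RNA of males, had 531 and 536 CPM in XXYohio, 552 and 703 CPM in XXYcongo and 2088 and 482 CPM in XX CNS, where female bodies had 7.87 to 13.9 CPM, male bodies 819 to 3404 CPM and testes 306 to 448 CPM. The Suppressor of Stellate copies had 20.1 and 28.0 CPM in XXYohio and 24.9 and 21.4 CPM in XXYcongo CNS, against 3.34 and 0 CPM in XX CNS, so that replicate 1 of the CNS libraries labelled XX was highest in roX1 and held some Y repeat RNA. FDY, a Y-linked gene with an autosomal parent gene, had 34.6 and 19.65 CPM in XXYohio and 26.6 and 19.95 CPM in XXYcongo CNS. In XX it had 13.5 and 8.21 CPM in the CNS, 0.219 and 0.444 CPM in bodies and 3.47 and 1.495 CPM in ovaries. Why both XX CNS libraries held FDY counts was not tested. In bulk RNA, fewer cells of a type and less RNA per cell cannot be told apart.

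Most of the listed chromosome 4 genes reached a mean of 10 CPM in each tissue. Levels between tissues are given as CPM scaled over all 30 libraries, with the mean and its SD taken over 6 libraries per tissue, and per kilobase of exons where genes are compared with each other. A mean of at least 10 CPM was reached by 44 of 47 genes in male bodies, 40 in the CNS, 39 in female bodies, 38 in testes and 30 in ovaries. The listed genes together took 0.729% to 1.32% of nuclear counts in ovaries, 0.968% to 1.28% in the CNS, 0.314% to 0.519% in testes, 1.02% to 2.05% in female bodies and 1.05% to 2.14% in male bodies.

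**Figure D1:**
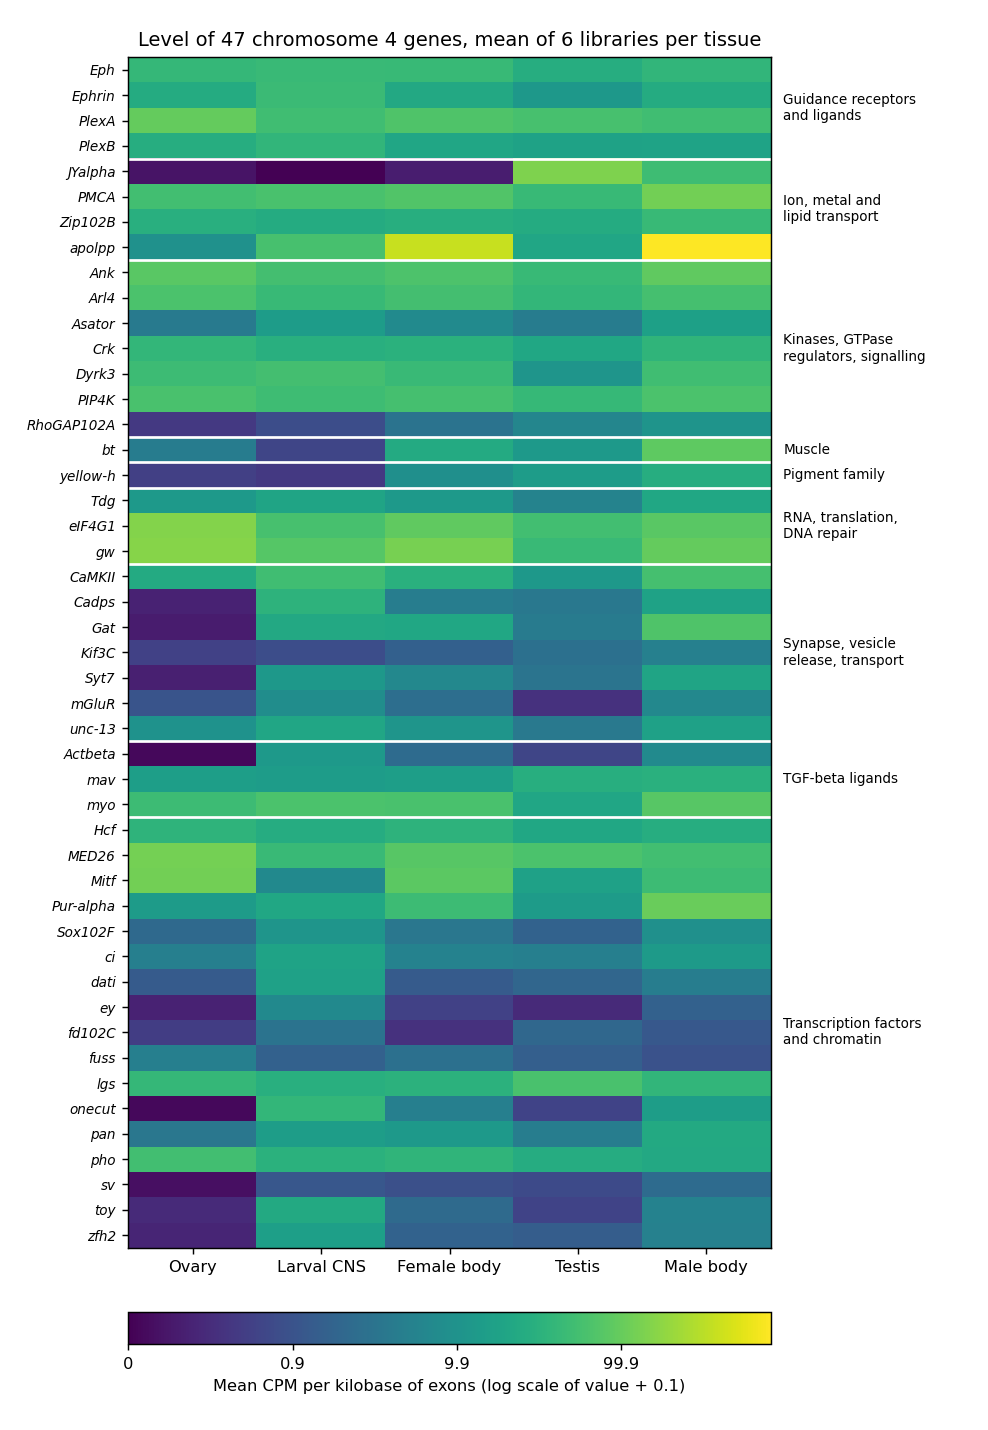
Mean level of the 47 chromosome 4 genes in 5 tissues, as CPM per kilobase of exons on a log colour scale, averaged over 6 libraries per tissue and grouped by role. apolpp is brightest in whole bodies, gw and eIF4G1 in ovaries and JYalpha in testes, and many synaptic genes and neural transcription factors are dark in ovaries.

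The leading genes differed between whole bodies, testes and the other tissues. The lipid carrier apolpp, an apolipoprotein that the fat body secretes into the blood, had 375 CPM per kilobase in female bodies and 809 in male bodies and made up 37.0% and 47.1% of the listed genes' summed CPM there. In ovaries, gw (GW182, a partner of microRNA-guided Argonaute) had 156 CPM per kilobase and eIF4G1 (a scaffold of translation initiation) had 154. In the CNS, gw led with 74.6 CPM per kilobase, ahead of the TGF-beta ligand myo with 62.9. In testes the sodium pump subunit JYalpha, which is needed for male fertility, led with 139.5 CPM per kilobase. JYalpha averaged 0.182 ± 0.214 CPM in ovaries, 0.329 ± 0.251 CPM in female bodies, 436 ± 68.8 CPM in testes and 152 ± 88.2 CPM in male bodies (n = 6 each). It had 0 counts in all 6 CNS libraries, and 3 counts, the limit that a count of 0 allows, correspond to 0.195 to 0.498 CPM per library.

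Several developmental regulators of the list were higher in the CNS than in female bodies. Between larval CNS and female bodies, edgeR with Benjamini-Hochberg adjustment called 18 of 47 listed genes higher and 12 lower in the CNS. In that comparison 63.1% of all 14384 genes tested were called. Calls in either direction were thus about as frequent in the list as among all genes. All genes split into 4565 called higher and 4505 called lower with TMM scaling, and 4192 and 4877 with RLE scaling. With RLE the listed genes split into 16 higher and 13 lower, and their median moved from 0.05 to -0.11. Of 17 transcription and chromatin genes, 8 were called higher and 4 lower in the CNS. The paired-box factor ey, a Pax6 regulator of eye and brain development, averaged 26.65 ± 4.29 CPM in the CNS and 1.74 ± 0.844 CPM in female bodies (n = 6 each) (log2 fold change 4.05, SE 0.33, edgeR adjusted p = 8.13e-10). Its relative toy was 10.7-fold higher, the zinc finger gene dati 14.5-fold, the forkhead gene fd102C 11.5-fold, zfh2 10.1-fold and onecut 8.43-fold. The giant muscle protein gene bt (projectin) was lower, at 15.4 ± 3.17 CPM in the CNS and 683 ± 232 CPM in female bodies (edgeR adjusted p = 8.6e-13). Also lower in the CNS were yellow-h, of the yellow protein family (0.0391-fold), Mitf, a regulator of lysosome genes (0.0868-fold), apolpp (0.158-fold) and RhoGAP102A, a regulator of small GTPases (0.259-fold). The 12 lower calls include JYalpha, which was at or near the limit of a count of 0 in both tissues and was not called without replicate 1 of the XXYcongo bodies (edgeR adjusted p = 1).

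Much of the synaptic group was low in ovaries. Against female bodies, 19 of 47 genes were called lower and 3 higher in ovaries, where 55.6% of all genes were called. Of 7 genes of synapses, vesicle release and neuronal transport, 5 were called lower. Cadps, which primes dense-core vesicles, averaged 0.776 ± 0.456 CPM in ovaries and 25.65 ± 8.36 CPM in female bodies (n = 6 each) (edgeR adjusted p = 7.37e-13). The GABA transporter gene Gat, the synaptotagmin gene Syt7, the activin ligand gene Actbeta and onecut averaged 0.276, 0.389, 0.0753 and 0.143 CPM in ovaries, against 61.9, 21.55, 8.25 and 31.6 CPM in female bodies, and all 4 were called lower. The 3 genes called higher in ovaries were fuss (a Ski and Sno family corepressor), eIF4G1 and the Mediator subunit gene MED26, with log2 fold changes of 0.84, 0.80 and 0.66. With RLE scaling in place of TMM, none of the 3 was called, 24 listed genes were lower and 0 higher where 47.2% of all genes were called, and the median of all genes was -0.14 in place of 0.00. All genes split into 4198 called higher and 3799 called lower with TMM, and 2344 and 4444 with RLE. The call of fuss was also lost without replicate 2 of the XX bodies, of the XXYcongo bodies or of the XXYcongo ovaries (log2 fold changes 0.73, 0.71 and 0.58).

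In testes against male bodies, 33 of 47 genes were called lower and 3 higher, with 75.2% of all genes called. All 7 synaptic genes were lower, mGluR (a metabotropic glutamate receptor) most, with 1.69 ± 0.907 CPM in testes and 41.2 ± 12.4 CPM in male bodies (n = 6 each) (edgeR adjusted p = 3.46e-11). apolpp (0.0251-fold), onecut (0.034-fold), Gat (0.0604-fold), Actbeta (0.0733-fold) and toy (0.0918-fold) were also lower. JYalpha was 3.1-fold higher in testes, fuss 1.7-fold and the Wnt coactivator gene lgs 1.66-fold. The calls of fuss and lgs were lost when certain single libraries were left out. For fuss these were replicate 1 of XY or XYYcongo bodies, replicate 2 of XYYohio bodies and replicate 1 of XY, XYYcongo or XYYohio testes, with log2 fold changes of 0.61 to 0.74. For lgs these were either XY body library, replicate 1 of XYYcongo bodies, replicate 2 of XYYohio bodies, replicate 1 of XY or XYYohio testes and replicate 2 of XYYcongo testes, with 0.55 to 0.75. With RLE scaling the median of all genes moved from -0.01 to 0.39 on the log2 scale and the split of the listed genes to 6 higher and 28 lower, with 76.8% of all genes called. All genes split into 5279 called higher and 5534 called lower with TMM, and 6478 and 4569 with RLE.

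Female against male bodies gave 30 listed genes lower and 3 higher in females, with 75.5% of all genes called. Here the median of all genes was itself -1.26 with TMM and -0.92 with RLE scaling, so the listed genes' median of -0.90 lay 0.37 above that of all genes with TMM and 0.36 above it with RLE. The genes called higher in females were fuss (3.25-fold), Mitf (1.74-fold) and MED26 (1.47-fold). Cadps (0.241-fold), fd102C (0.243-fold), bt (0.274-fold), dati (0.275-fold) and ey (0.289-fold) were lower, as was JYalpha, whose levels are given above. fd102C was not called with mitochondrial genes left out (edgeR adjusted p = 0.0551). With RLE scaling the split was 8 higher and 21 lower, with 72.5% of all genes called. All genes split into 1959 called higher and 8896 called lower in females with TMM, and 2747 and 7675 with RLE. MED26 lost its call without replicate 1 of XX, XXYcongo, XXYohio, XY or XYYcongo bodies (log2 fold changes 0.38 to 0.49). In the control genotypes alone, 12 of 47 listed genes were called between the sexes, against 48% of all genes.

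With an added Y, the ovary showed the widest shift of chromosome 4 genes. Of 47 listed genes, 41 passed the filter on low counts in ovaries. For the mean of both added Y chromosomes over XX, 40 of those 41 had a log2 fold change below 0, against 46.3% of all 8829 genes tested. Their median log2 fold change was -0.65, against 0.04 for all genes and 0.08 for 5621 other genes of like level, meaning genes between the quartiles of the listed genes' mean level. Of the other chromosome 4 genes, 32 of 38 lay below 0, with a median of -0.66. The median was -0.71 with Yohio and -0.56 with Ycongo over XX, contrasts that share the XX libraries. The filter itself fixes part of this: Cadps, ey, yellow-h and zfh2 reached its level in both XX libraries but in fewer than 2 added-Y libraries, and toy reached it in at least 2 added-Y libraries but not in both XX libraries. Of the 36 listed genes that reached it in both kinds of library, 36 lay below 0, against 45.5% of the 8220 such genes in all, and their median was -0.62, against 0.04 for 3169 such genes of like level. This subset was chosen after the data had been seen.

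No single listed gene was called by edgeR in ovaries. edgeR called 0 of 41 listed genes with Yohio, with Ycongo or with their mean, where 0.0113%, 0.283% and 0.215% of all genes were called. At an unadjusted p under 0.05 stood 13, 12 and 17 of the 41 in these comparisons, all lower with the added Y, against 7.02%, 10.9% and 9.99% of all genes. The smallest edgeR adjusted p among them was 0.424 with Yohio, 0.0848 with Ycongo and 0.0685 for the mean. DESeq2 on the same libraries called 1, 4 and 6 of them, all lower, and 0.261%, 2.06% and 1.23% of all genes. The 41 genes behind these counts include Cadps, ey, yellow-h and zfh2, for which the filter favoured lower values with an added Y. Without replicate 2 of XXYcongo, edgeR called 3, 6 and 9 of 43 listed genes then tested, and 0.504%, 2.85% and 2.35% of all genes. Without replicate 1 of XXYcongo it called 3, 3 and 6 of 43, and 0.293%, 5.39% and 3.26% of all genes. Without either XX library or either XXYohio library it called 0. In the authors' deposited table for ovaries, 43 of 47 listed genes lay below 0 with Yohio (median -0.46) and 42 of 47 with Ycongo (median -0.37), against 52.7% and 49.5% of all genes. The authors' deposited table gave 5 of them an adjusted p below 0.05 with Yohio (Sox102F, apolpp, bt, mGluR, mav) and 3 with Ycongo (Pur-alpha, apolpp, pho). Over all genes with an adjusted p, the authors' deposited table gave one below 0.05 to 77 of 7133 (1.08%) with Yohio and to 98 of 8419 (1.16%) with Ycongo.

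**Figure D2:**
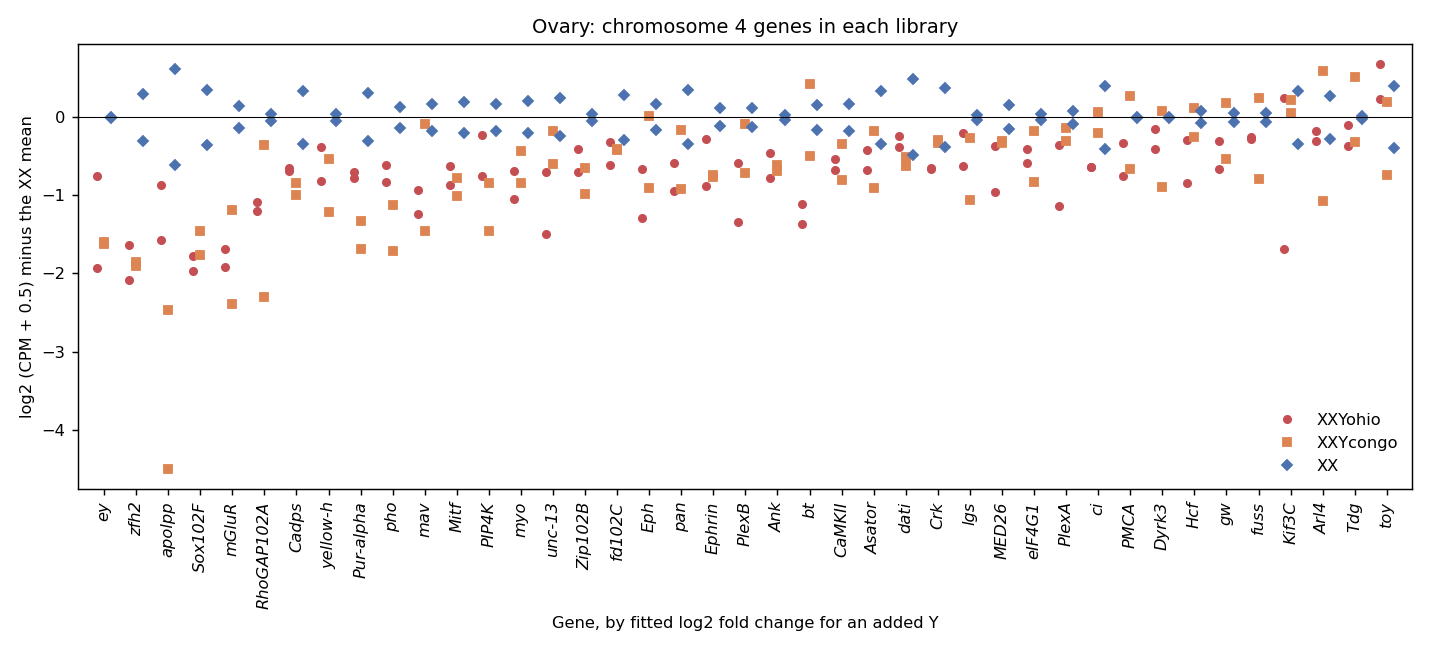
log2 (CPM + 0.5) of the 41 tested chromosome 4 genes in the 6 ovary libraries, minus the mean of the 2 XX libraries, ordered by fitted fold change. Circles are XXYohio, squares XXYcongo and diamonds XX libraries, and for 22 of the 41 genes all 4 added-Y points lie under both XX points.

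Levels in single libraries showed how far the groups stood apart. CPM in the following are scaled within a tissue, and the 2 values of a group are its 2 libraries. Among genes with a mean log2 CPM of at least 2, apolpp, Sox102F and mGluR had the largest changes. apolpp had 78.1 and 127 CPM in XXYohio ovaries and 9.81 and 41.5 CPM in XXYcongo ovaries, against 356 and 152 CPM in XX ovaries. All 4 added-Y libraries lay under both XX libraries, and the log2 fold change for the mean of both was -2.30 (SE 0.49, edgeR adjusted p = 0.126). Sox102F, a Sox-family transcription factor, had 5.37 and 4.62 CPM in XXYohio and 6.86 and 5.42 CPM in XXYcongo ovaries, against 25.3 and 15.2 CPM in XX ovaries (log2 fold change -1.87, SE 0.34, edgeR adjusted p = 0.0685). Its groups did not overlap. mGluR had 3.79 and 3.15 CPM in XXYohio and 2.13 and 5.55 CPM in XXYcongo ovaries, against 14.7 and 12.05 CPM in XX ovaries, again without overlap (log2 fold change -1.86, SE 0.42, edgeR adjusted p = 0.147). Without replicate 2 of XXYcongo, the log2 fold changes of apolpp, Sox102F and mGluR were -2.99, -1.78 and -2.29 and all 3 were called, as they were without replicate 1 of XXYcongo (-1.95, -1.95 and -1.60). Without replicate 1 of XX the values of apolpp and Sox102F were -1.55 and -1.45, and no listed gene was called. Exons of apolpp overlap an antisense gene, so that its counts may hold reads of both.

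The other 3 genes that DESeq2 called lower for the mean of both added Y chromosomes also stood apart. pho, which binds DNA and recruits Polycomb complexes, had 126 and 146 CPM in XXYohio and 68.0 and 103 CPM in XXYcongo ovaries, against 246 and 204 CPM in XX ovaries. Pur-alpha, which binds single-stranded nucleic acid, had 44.9 and 42.7 CPM in XXYohio and 22.3 and 29.0 CPM in XXYcongo ovaries, against 91.0 and 59.0 CPM in XX ovaries. zfh2 stood near the detection limit, at 0.737 and 1.19 CPM in XXYohio and 0.946 and 0.903 CPM in XXYcongo ovaries, against 5.96 and 3.74 CPM in XX ovaries. None of these 3 overlapped between added-Y and XX libraries. Their edgeR adjusted p-values for the mean of both added Y chromosomes were 0.163, 0.145 and 0.127. zfh2 passed the filter on low counts through the XX libraries, so the filter fixed part of its difference.

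The shift was not limited to weakly expressed genes. eIF4G1 had 968 and 1094 CPM in XXYohio and 823 and 1292 CPM in XXYcongo ovaries, against 1496 and 1417 CPM in XX ovaries. The semaphorin receptor gene PlexA had 643 and 1112 CPM in XXYohio and 1146 and 1294 CPM in XXYcongo ovaries, against 1502 and 1340 CPM in XX ovaries. Mitf had 481 and 571 CPM in XXYohio and 513 and 438 CPM in XXYcongo ovaries, against 1010 and 765 CPM in XX ovaries. In these 3 the added-Y libraries did not overlap the XX libraries. The ankyrin gene Ank, with 452 and 563 CPM in XXYohio and 483 and 506 CPM in XXYcongo ovaries, against 758 and 795 CPM in XX ovaries, did not overlap either. gw did overlap, with 814 and 1044 CPM in XXYohio and 1464 and 890 CPM in XXYcongo ovaries, against 1338 and 1235 CPM in XX ovaries. Tdg, a DNA repair glycosylase gene whose exons overlap those of zfh2 on the other strand, had 155 and 186 CPM in XXYohio and 161 and 286 CPM in XXYcongo ovaries, against 203 and 197 CPM in XX ovaries, and overlapped too.

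By the count of libraries, 22 of 41 listed genes (53.7%) had all 4 added-Y ovary libraries lower than both XX libraries, a pattern that 10.5% of all genes, 8.75% of genes of like level and 19 of 38 other chromosome 4 genes showed. Among the 36 listed genes that met the filter's level in both kinds of library, 18 showed it, as did 10.4% of all such genes. The opposite pattern, all 4 higher, was shown by 0 of 41 listed genes and by 10.1% of all genes. These counts were chosen after the data had been seen and carry no test. Every role group leaned the same way: 4 of 4 guidance genes, 7 of 7 kinase and GTPase genes, 5 of 5 tested synaptic genes, 2 of 2 tested TGF-beta ligands, 3 of 3 transport genes, 3 of 3 RNA and DNA repair genes and 14 of 15 transcription and chromatin genes lay below 0. The exception was toy, at 0.948 and 1.47 CPM in XXYohio and 0.236 and 0.903 CPM in XXYcongo ovaries, against 0.434 and 1.12 CPM in XX ovaries. The medians of these groups ran from -0.30 for RNA and DNA repair genes to -0.81 for TGF-beta ligands, and bt (-0.61) and yellow-h (-1.18), each alone in its group, also lay below 0. Cadps among the synaptic genes, ey and zfh2 among the transcription and chromatin genes, and yellow-h passed the filter through the XX libraries. The filter therefore favoured values below 0 for these 4 genes, and above 0 for toy. All 36 genes that reached its level in both kinds of library lay below 0.

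**Figure D3:**
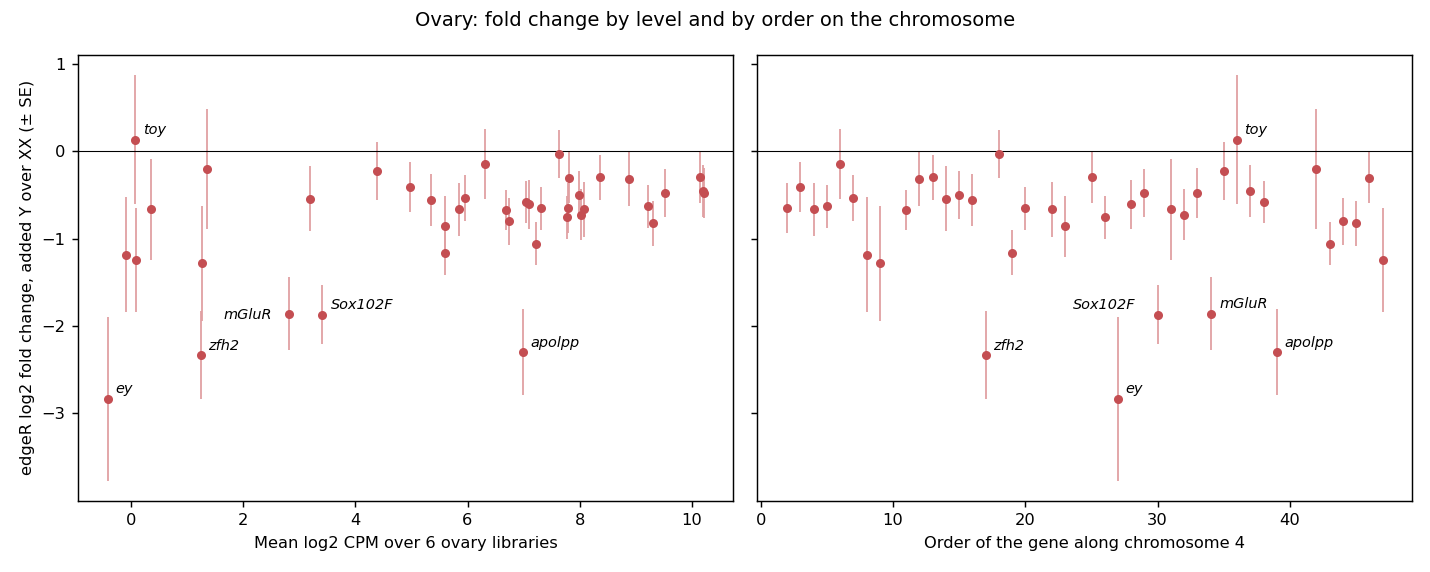
Fitted log2 fold change (± SE) for an added Y over XX in ovaries, for the 41 tested genes, against mean log2 CPM on the left and against order along chromosome 4 on the right. The fold changes of the 14 highest genes lie between -0.83 and -0.30, and negative values run along the whole chromosome.

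The 14 genes of highest level in ovaries all lay below 0, with a median log2 fold change of -0.49. The weakest genes are not set against them here, since the filter admitted 4 of them through the XX libraries. Split by position, the medians were -0.54, -0.67 and -0.66 from low to high coordinates, and Spearman's rank correlation with position was -0.11 across the 41 genes. These are descriptions across genes, which share the libraries and are not independent replicates.

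Markers of other tissues also differed between ovary libraries. Summed markers of glia (repo, Gs2, Eaat1) were 13.5 and 17.2 CPM in XXYohio and 12.3 and 26.1 CPM in XXYcongo ovaries, against 31.2 and 23.6 CPM in XX ovaries, and 3 of 3 had a log2 fold change below 0. Summed markers of neurons were 7.27 and 5.11 CPM in XXYohio and 5.20 and 11.4 CPM in XXYcongo ovaries, against 16.2 and 8.60 CPM in XX ovaries, of which elav alone passed the filter. Of the 5 fat body markers, 4 were tested: the larval storage proteins Lsp1beta (log2 fold change -3.29, edgeR adjusted p = 0.0349) and Lsp2 (-2.61, edgeR adjusted p = 0.127) lay below 0, and the yolk proteins Yp1 and Yp2 lay at 0.03 and 0.25. Muscle markers lay below 0 in 3 of 5, with a median of -0.21. Of the ovary's own 5 markers, 4 lay below 0, with a median of -0.21 and bcd lowest at -1.20. Mitochondrially encoded genes took 4.82% and 6.61% of counts in XXYohio and 1.81% and 4.17% in XXYcongo ovaries, against 12.8% and 8.18% in XX ovaries, so that all 4 added-Y libraries lay below both XX libraries. The part of other tissues, and of the mitochondrial share, in the ovary result was not tested. Leaving mitochondrial genes out gave a distance from genes of like level of -0.73, the same as with them. That setting drops only the rows of 35 genes, so it cannot show what differed between the libraries.

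The larval CNS gave a smaller shift of the same sign. There 45 listed genes were tested, and for the mean of both added Y chromosomes over XX 41 of 45 lay below 0, against 49.1% of all 9936 genes. The median log2 fold change was -0.22, against 0.01 for all genes, -0.01 for 2684 genes of like level and -0.17 for 42 other chromosome 4 genes. It was -0.23 with Yohio and -0.18 with Ycongo. The listed genes' median minus that of genes of like level was -0.21 with all 6 libraries and -0.17 without replicate 1 of XX, the CNS library with the highest roX1. The part of roX1, Y repeat RNA or FDY in this distance was not tested. edgeR called 0 of 45 listed genes in each comparison, where 0.0403%, 0.0101% and 0.0403% of all genes were called for Yohio, Ycongo and their mean. DESeq2 also called 0, and at an unadjusted edgeR p under 0.05 stood 5, 0 and 3 listed genes, all lower, against 5.88%, 5.16% and 5.67% of all genes.

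In 16 of 45 listed genes (35.6%) all 4 added-Y CNS libraries were lower than both XX libraries, as were 8.2% of all genes, and in 0 of 45 all 4 were higher, as were 7.73% of all genes. PlexA had 622 and 732 CPM in XXYohio and 809 and 743 CPM in XXYcongo CNS, against 932 and 838 CPM in XX CNS. CaMKII, a calcium-activated kinase of synaptic plasticity, had 274 and 289 CPM in XXYohio and 311 and 342 CPM in XXYcongo CNS, against 362.5 and 384.5 CPM in XX CNS. Sox102F had 57.0 and 61.0 CPM in XXYohio and 69.7 and 50.65 CPM in XXYcongo CNS, against 76.3 and 84.5 CPM in XX CNS (log2 fold change -0.43, SE 0.16, edgeR adjusted p = 0.799). These 3 genes did not overlap between added-Y and XX libraries. fuss had 4.48 and 8.63 CPM in XXYohio and 7.78 and 7.22 CPM in XXYcongo CNS, against 9.896 and 11.1 CPM in XX CNS, also without overlap (log2 fold change -0.58, SE 0.32, edgeR adjusted p = 0.799). Its log2 fold change was -0.37 without replicate 1 of XXYohio and -0.85 without replicate 2 of XXYohio. The kinesin gene Kif3C did overlap, at 1.73 and 5.95 CPM in XXYohio and 3.53 and 3.81 CPM in XXYcongo CNS, against 5.44 and 7.32 CPM in XX CNS (log2 fold change -0.76, SE 0.50). It was -0.44 and -1.34 without these same XXYohio libraries. Neuronal markers in the CNS had a median of -0.25, with 4 of 4 tested below 0, and glial markers a median of 0.07. Their part in the result was not tested.

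**Figure D4:**
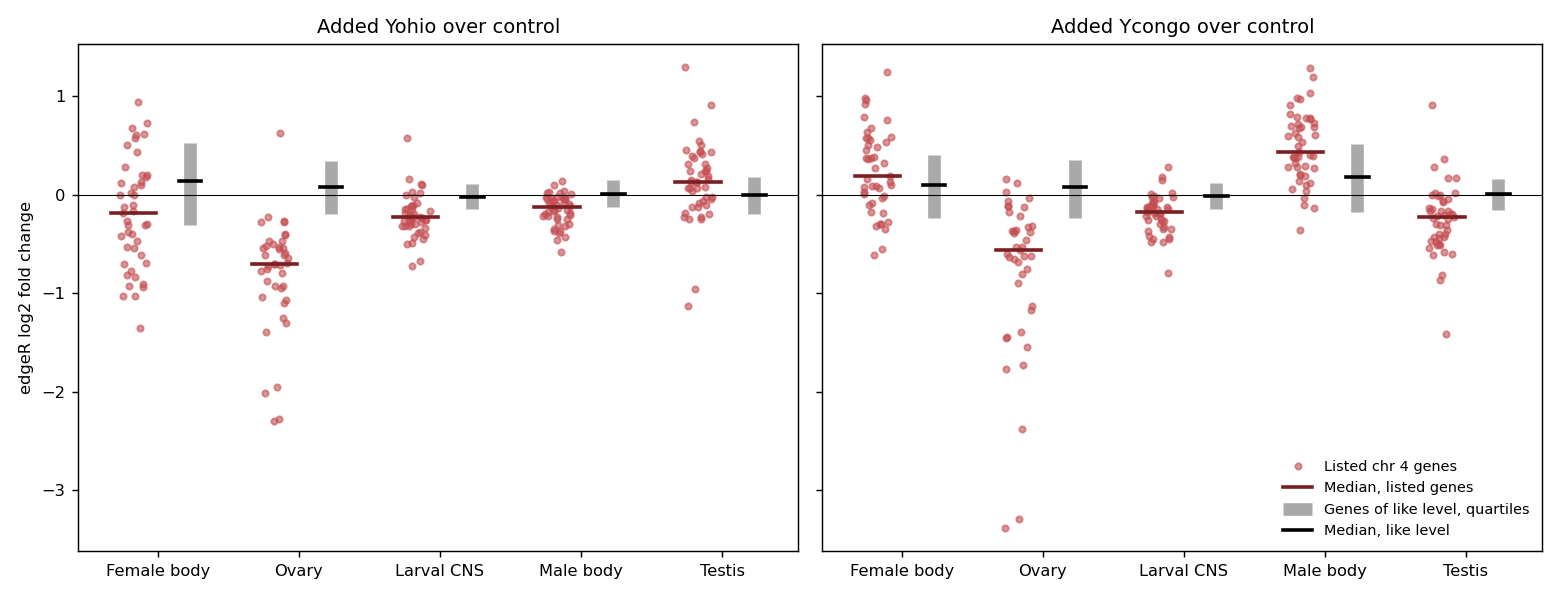
edgeR log2 fold changes of the tested chromosome 4 genes with Yohio (left) and Ycongo (right) over the control, in 5 tissues. Points are genes, dark lines their median, and grey bars with black lines the quartiles and median of other genes of like level. The ovary medians are -0.71 and -0.56 and the CNS medians -0.23 and -0.18, while bodies and testes differ in sign between the added Y chromosomes.

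In whole bodies and testes the listed genes' medians differed in sign between the 2 added Y chromosomes. Libraries of the same group also lay apart in the listed genes' median of log2 (CPM + 0.5). The gaps were 0.96 in XXYohio, 0.12 in XXYcongo and 0.73 in XX bodies. In male bodies they were 0.18 in XYYohio, 0.58 in XYYcongo and 0.67 in XY. In testes they were 0.016, 0.455 and 0.032 in the same order. Whether the signs belong to the Y chromosomes or to single libraries was not tested. The median log2 fold change was -0.19 with Yohio and 0.19 with Ycongo over XX in female bodies, in male bodies -0.13 and 0.43 over XY, and in testes 0.13 and -0.23 over XY. All of these were without a called gene: edgeR called 0% of all genes and none of the 45, 47 or 46 listed genes tested in female bodies, male bodies and testes. At an unadjusted p under 0.05 stood 0 listed genes in female bodies and 0 in male bodies for either Y over its control, and in testes 1 with Yohio and 2 with Ycongo. The shares of all genes, with Yohio and Ycongo in this order, were 9.35% and 4.27% in female bodies, 0.466% and 7.39% in male bodies and 2.9% and 2.28% in testes. DESeq2 called 0 listed genes in these 3 tissues.

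The direct comparison of Ycongo with Yohio gave a median of 0.41 in female bodies, 0.64 in male bodies and -0.33 in testes, with 42 of 45 and 44 of 47 listed genes above 0 in the bodies and 41 of 46 below 0 in testes. Of all genes, 51.5%, 48.3% and 49.3% lay below 0 in these 3, and genes of like level had medians of -0.03, 0.15 and 0.01. In ovaries the median of the listed genes was 0.10 and in the CNS 0.03. edgeR called 0 listed genes in each, where 0% of all genes were called in bodies and testes, 0.0113% in ovaries and 0.0302% in the CNS. At an unadjusted p under 0.05 stood 0, 4 and 7 listed genes in female bodies, male bodies and testes, against 1.31%, 6.64% and 3.72% of all genes, and DESeq2 called 0.

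Female bodies held no common direction across libraries. pho had 167 and 41.4 CPM in XXYohio and 113 and 143 CPM in XXYcongo bodies, against 74.0 and 34.2 CPM in XX bodies (log2 fold change 1.09, SE 0.58, edgeR adjusted p = 0.559). PIP4K, a phosphoinositide kinase, had 142 and 49.7 CPM in XXYohio and 134 and 111.5 CPM in XXYcongo bodies, against 83.5 and 41.3 CPM in XX bodies (log2 fold change 0.80, SE 0.50). mGluR had 14.7 and 9.18 CPM in XXYohio and 13.1 and 18.7 CPM in XXYcongo bodies, against 30.04 and 18.55 CPM in XX bodies (log2 fold change -0.82, SE 0.39, edgeR adjusted p = 0.538). All 3 overlapped between added-Y and XX libraries. Without replicate 1 of XX their log2 fold changes were 1.77, 1.41 and -0.42, without replicate 1 of XXYohio those of pho and PIP4K were 0.43 and 0.33, and without replicate 2 of XX that of mGluR was -1.10. Only Cadps had all 4 added-Y libraries below both XX libraries, which 12.5% of all genes had, and gw and the adaptor gene Crk had all 4 above, which 9.37% of all genes had. Markers in female bodies differed too: muscle markers had a median of -1.23 with 5 of 5 below 0, photoreceptor markers -1.14 with 4 of 4 below 0, and ovary markers 0.64 with 4 of 5 above 0. Their part in these values was not tested.

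In male bodies 1 library carried the largest values. Arl4, a small GTPase gene, had 32.9 and 24.5 CPM in XYYohio and 29.1 and 109 CPM in XYYcongo bodies, against 23.7 and 33.2 CPM in XY bodies. Syt7 had 31.5 and 23.6 CPM in XYYohio and 29.96 and 114.6 CPM in XYYcongo bodies, against 28.0 and 35.2 CPM in XY bodies. RhoGAP102A had 23.9 and 34.7 CPM in XYYohio and 35.4 and 85.9 CPM in XYYcongo bodies, against 24.95 and 34.5 CPM in XY bodies. In all 3, the XYYcongo library of replicate 2 stood apart. For the mean of both added Y chromosomes their log2 fold changes were 0.65, 0.50 and 0.50, and without that library they were 0.02, -0.14 and 0.11. No listed gene had all 4 added-Y libraries below or above both XY libraries in male bodies, as 3.1% and 2.97% of all genes had.

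In testes, 4 of 46 listed genes had all 4 added-Y libraries lower than both XY libraries and 4 had them higher, where 4.58% and 5.19% of all genes had. The lower ones were Gat, PMCA, onecut and Sox102F, and the higher ones fuss, dati, Asator and Actbeta. Actbeta reached the level of the filter on low counts in at least 2 added-Y libraries but not in both XY libraries. The filter therefore fixed part of its place among the higher ones. Gat had 8.40 and 5.85 CPM in XYYohio and 6.71 and 9.03 CPM in XYYcongo testes, against 10.3 and 17.3 CPM in XY testes (log2 fold change -0.89, SE 0.30, edgeR adjusted p = 1.0). The calcium pump gene PMCA had 270 and 262 CPM in XYYohio and 208 and 222 CPM in XYYcongo testes, against 271 and 354 CPM in XY testes. fuss had 7.56 and 4.23 CPM in XYYohio and 4.20 and 3.84 CPM in XYYcongo testes, against 3.77 and 2.52 CPM in XY testes (log2 fold change 0.64, SE 0.38). Without replicate 2 of XY the log2 fold changes of Gat, PMCA and fuss were -0.46, -0.18 and 0.36, and without replicate 1 of XY -1.22, -0.58 and 0.93.

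**Figure D5:**
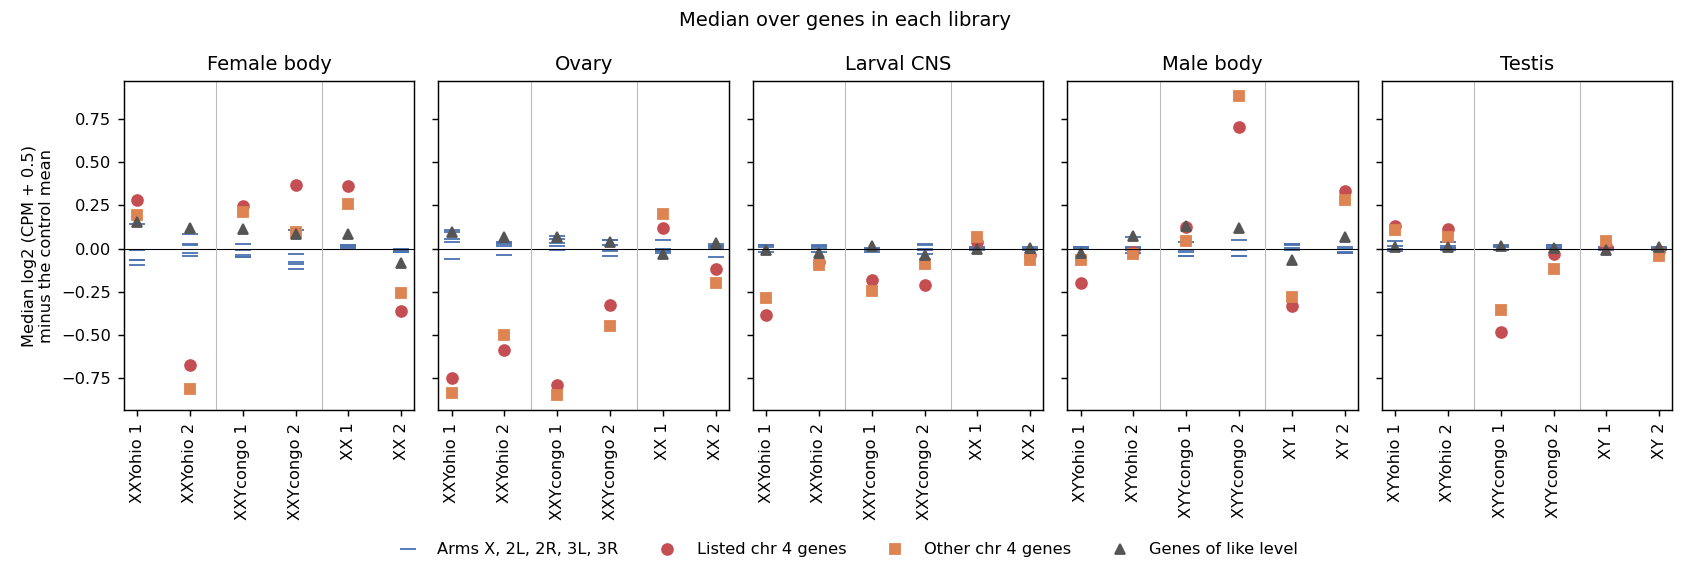
Median over genes of log2 (CPM + 0.5) minus the mean of the 2 control libraries, for each of 30 libraries in 5 tissues. Circles are the listed chromosome 4 genes, squares the other chromosome 4 genes, triangles genes of like level and dashes the arms X, 2L, 2R, 3L and 3R, which stay between -0.12 and 0.14 while the chromosome 4 sets spread from -0.85 to 0.89.

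Chromosome 4 genes also moved together between libraries of the same group. The median of the listed genes, on log2 (CPM + 0.5) relative to the control mean, was 0.28 and -0.67 in the XXYohio body libraries, 0.25 and 0.37 in XXYcongo and 0.36 and -0.36 in XX. In male bodies it was -0.20 and -0.02 in XYYohio, 0.13 and 0.71 in XYYcongo and -0.34 and 0.34 in XY. In ovaries it was -0.75 and -0.59 in XXYohio, -0.79 and -0.33 in XXYcongo, and 0.12 and -0.12 in XX, so that every added-Y library lay under both XX libraries. In the CNS it was -0.39 and -0.08 in XXYohio, -0.18 and -0.21 in XXYcongo and 0.04 and -0.04 in XX, again without overlap. In testes it was 0.13 and 0.11 in XYYohio, -0.49 and -0.03 in XYYcongo, and 0.02 and -0.02 in XY. The other chromosome 4 genes followed, with 0.20 and -0.82 in XXYohio bodies, and -0.84 and -0.50 in XXYohio, -0.85 and -0.45 in XXYcongo and 0.20 and -0.20 in XX ovaries. Mitochondrially encoded genes took 33.2% and 5.21% of counts in XXYohio bodies, 25.4% and 33.5% in XXYcongo and 25.2% and 9.26% in XX. In male bodies they took 15.7% and 9.37% in XYYohio, 10.1% and 40.1% in XYYcongo and 14.0% and 13.9% in XY. In testes they took 4.72% and 5.37% in XYYohio, 1.78% and 3.61% in XYYcongo and 4.58% and 3.48% in XY. The part of this share in the medians was not tested.

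In 12 of 15 groups the 2 libraries differed more in the median of the listed genes than in that of any arm among X, 2L, 2R, 3L and 3R. Each arm holds many more genes than the list, so its median varies less, and this count carries no test. The gap between the libraries of a group reached 0.96 in XXYohio bodies, 0.73 in XX bodies, 0.67 in XY bodies, 0.58 in XYYcongo bodies and 0.46 in XXYcongo ovaries, against 0.24 in XX ovaries. For the other arms it reached 0.16 at most, in XXYcongo bodies. Whole-arm medians of the fitted fold change for the mean of both added Y chromosomes in ovaries were 0.00 for X, 0.03 for 2L, 0.06 for 2R, 0.03 for 3L and 0.07 for 3R, and -0.65 for the 79 tested genes of chromosome 4.

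Between tissues, edgeR called no listed gene in the tests of the difference. For the change with an added Y in the CNS minus that in ovaries, 38 of 46 listed genes lay above 0 with Yohio (median 0.43, against 0.03 for all genes) and 34 of 46 with Ycongo (median 0.43, against -0.05). For female bodies minus ovaries, 37 of 46 lay above 0 with Yohio (median 0.63, against 0.06) and 41 of 46 with Ycongo (median 0.95, against 0.00). For female minus male bodies the medians were 0.02 with Yohio and -0.15 with Ycongo. edgeR called 0 listed genes in all 6 tests, where 0.124% of all genes were called for Ycongo in the CNS minus ovaries and 0% in the other 5. At an unadjusted p under 0.05 stood 6 and 9 listed genes in the CNS minus ovaries, 5 and 7 in female bodies minus ovaries and 0 and 0 between the bodies, with Yohio and Ycongo in this order. The shares of all genes were 4.7% and 7.56%, 8.31% and 9.3%, and 5.02% and 4.79%. DESeq2 called zfh2 with Yohio (0.143% of all genes), and zfh2 and pho with Ycongo (1.09%), for the CNS minus ovaries. For female bodies minus ovaries it called apolpp with Ycongo (1.04% of all genes with an adjusted p) and 0 listed genes with Yohio, and between the bodies 0. With 2 libraries in each group, a missed threshold does not show that the tissues responded alike.

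The known regulators of chromosome 4 and of its heterochromatin did not pass the test either. Of 12 (Pof, egg, its cofactor wde, the methyltransferases G9a and Su(var)3-9, the gene of HP1a, Su(var)3-7, HP1b, HP1c, ADD1, Set1 and the acetyltransferase mof), edgeR called 0 in any tissue for the mean of both added Y chromosomes. Above 0 were 11 of 12 in female bodies (median 0.58), 6 in ovaries (median 0.00), 9 in the CNS (median 0.03), 3 in male bodies (median -0.30) and 7 in testes (median 0.08). Of all genes, 50.9%, 46.3%, 49.1%, 47.7% and 51.2% lay below 0 in these tissues, in this order. At an unadjusted p under 0.05 stood 1 in female bodies, 1 in ovaries and 1 in the CNS. The shares of all genes were 9.48%, 9.99% and 5.67%, so these counts do not set the regulators apart. In ovaries that one was Pof, at 29.1 and 37.0 CPM in XXYohio and 21.2 and 32.5 CPM in XXYcongo, against 56.8 and 39.4 CPM in XX (log2 fold change -0.69, SE 0.28, edgeR adjusted p = 0.469). egg had 93.4 and 101 CPM in XXYohio and 84.6 and 110 CPM in XXYcongo ovaries, against 54.1 and 86.1 CPM in XX ovaries (log2 fold change 0.47, SE 0.27, edgeR adjusted p = 0.6).

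Pof was singled out after its values had been seen, and they are given beside the listed genes' medians above. In female bodies Pof had 70.6 and 31.8 CPM in XXYohio, 55.1 and 59.3 CPM in XXYcongo, and 49.9 and 14.8 CPM in XX. The 2 body libraries with the lowest Pof level, replicate 2 of XX and replicate 2 of XXYohio, were also the 2 with the lowest median of chromosome 4 genes. In ovaries, too, all 4 added-Y libraries were under both XX libraries in both measures. In the CNS Pof had 25.5 and 28.0 CPM in XXYohio and 34.5 and 25.6 CPM in XXYcongo, against 26.6 and 29.3 CPM in XX, and these groups overlapped although those of the listed genes' median did not. In male bodies it had 108 and 87.9 CPM in XYYohio and 133 and 141 CPM in XYYcongo, against 124 and 104 CPM in XY. In testes it had 291 and 289.5 CPM in XYYohio and 466.5 and 321 CPM in XYYcongo, against 320 and 409 CPM in XY, and the library with the highest Pof level, replicate 1 of XYYcongo, had the lowest median of chromosome 4 genes. The part of Pof in the values of the listed genes was not tested.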

How the data were processed

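Poly(A) RNA of 30 libraries had been sequenced from both ends, per the labels' protocols. The deposited files hold raw read counts per FlyBase gene for each library, without normalization. The authors' deposited tables of 10 comparisons hold a log2 fold change and an adjusted p-value for each gene, and 5 further tables that combine comparisons were not used. The submitters' processing notes name SAMtools, Bowtie2 and Trim Galore, R 3.2.3 and DESeq2 1.8.1. For genome build and strandedness, the sources used here give nothing. Reads of the 13 listed genes whose exons overlap an antisense gene, among them zfh2, Tdg, fuss, apolpp and unc-13, may be shared with that partner. Groups written "cs" in file names were read as Yohio, the genotype the labels give.

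The listed genes were matched by symbol (46 names) or by a RefSeq synonym (Thd1), and positions come from Ensembl release 115 of BDGP6.54. None had counts identical to those of another gene in every library. Counts were fitted with edgeR 4.0.16 in R 4.3.3: filterByExpr with a minimum count of 10, TMM scaling, quasi-likelihood tests and Benjamini-Hochberg adjustment over all genes tested, with genes called at an adjusted p below 0.05. There were 5 fits of 6 libraries for the added Y (3 residual degrees of freedom), 1 of 30 libraries for tissues (15) and 3 of 12 libraries for differences between tissues (6). SE is the log2 fold change over the square root of the F statistic. Of these fits, only that of the ovaries was tested on simulated data, with the same fixed spread for every gene. That spread was not taken from the libraries. CPM were scaled in both of these ways: over all 30 libraries for tissue levels, and within a tissue for the added Y. For each library, the limit that a count of 0 allows was taken as 3 counts, which covers counting error only. With 2 against 2 libraries, an exact permutation test of a single value cannot reach 0.05, so none was made.

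The members, role groups, regulators and markers were chosen with earlier results of these data known. Values per library were to be given for called members, for the 3 members per tissue with the largest change and a mean log2 CPM of 2 or more, and for up to 6 called members per direction of a tissue comparison. Members whose library values are given outside this rule (pho, Pur-alpha, zfh2, eIF4G1, PlexA, Mitf, Ank, gw, Tdg, toy, CaMKII and the genes named from library counts) were chosen after their values had been seen. Genes of like level, other chromosome 4 genes and arms were summarised by counts and medians without a test. Alternatives were DESeq2 1.42.0, RLE scaling, all genes without a filter on low counts, mitochondrial genes left out, 4 libraries only, replicate number as a block and each library left out. A planned search of promoters for motifs was not made, since sequences were not used here. Same-numbered libraries of a tissue did not deviate together throughout, and the labels do not say that numbers pair libraries, so no block was used.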

Additional observations from a re-analysis of the deposited data

Results flagged for a closer look

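fuss, a corepressor gene of the Ski and Sno family whose exons overlap antisense genes, stood out because its libraries lay on opposite sides of the control in 2 tissues. In the larval CNS all 4 added-Y libraries were lower than both XX libraries (4.48 and 8.63 CPM in XXYohio and 7.78 and 7.22 CPM in XXYcongo, against 9.896 and 11.1 CPM in XX), with a log2 fold change of -0.578 (-0.37 without XXYohio replicate 1 and -0.85 without XXYohio replicate 2). In testes all 4 added-Y libraries were higher than both XY libraries (7.56 and 4.23 CPM in XYYohio and 4.20 and 3.84 CPM in XYYcongo, against 3.77 and 2.52 CPM in XY), with a log2 fold change of 0.636 (0.36 without XY replicate 2 and 0.93 without XY replicate 1). Of all genes, 8.2% had all 4 added-Y CNS libraries lower and 5.19% had all 4 added-Y testis libraries higher than both controls. fuss was picked among the listed genes after its values had been seen. The difference between the tissues was not tested, and edgeR called fuss in neither.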

How the results depend on the processing

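For the members called with an added Y in ovaries, where edgeR called 0, DESeq2 called 1 with Yohio, 4 with Ycongo and 6 for their mean, without a filter on low counts edgeR called 4, 7 and 6, and the 4 libraries of the Yohio contrast alone gave 3; without the filter, 0.725%, 2.01% and 1.53% of all genes were called. With replicate number as a block, 3 were called with Ycongo and 2 for the mean, and no other call of the listed genes with an added Y changed under the block; the correlations of same-numbered libraries ran from -0.629 to 0.658. Leaving out 1 library gave 0 to 3 calls with Yohio, 0 to 6 with Ycongo and 0 to 9 for the mean, the highest counts without XXYcongo replicate 2 (for Yohio, without either XXYcongo library), and 0 to 1 for Ycongo over Yohio, which gave 2 without the filter. The tests of differences moved from 0 calls to 1 with DESeq2 and 3 without the filter (Yohio, CNS minus ovaries), 1 and 4 (Ycongo, female bodies minus ovaries), and 2 and 5 (Ycongo, CNS minus ovaries, with 0 to 1 when a library was left out). Female against male bodies gave 12 calls in control genotypes alone, where 48% of all genes were called. The share of all genes called is not given for the block, for the 4 libraries alone or for Ycongo over Yohio under these settings. Nor is it given for the tests of differences without the filter or without 1 library. Those counts therefore cannot be set beside all genes and are not a result about the listed genes. The cause of these changes was not tested.

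The listed genes' median minus that of genes of like level was -0.73 in ovaries, between -0.73 and -0.69 under 6 other settings and between -0.89 and -0.57 without 1 library. It was -0.21 in the CNS (-0.27 to -0.12 without 1 library), -0.14 in female bodies (-0.44 to 0.25), 0.04 in male bodies (-0.15 to 0.36) and -0.08 in testes (-0.19 to 0.03), so without 1 library its sign held in all fits of ovaries and CNS and not of the other 3. Syt7 in male bodies, at 0.50 with all libraries, ran from -0.141 without XYYcongo replicate 2 to 0.833 without XYYcongo replicate 1. With mitochondrial counts in the total, the listed genes' share was 1.40% in XXYcongo bodies, 1.06% in XXYcongo CNS, 1.10% in XX ovaries, 1.17% in XX CNS, 1.30% in XYYohio bodies and 1.39% in XYYcongo bodies, against 1.99%, 1.12%, 1.23%, 1.24%, 1.48% and 1.90% of nuclear counts. With 2 libraries a group, the spread between libraries limits what can be called.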
